A study of Mus musculus with 16 samples.

Results

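Thalamic and midbrain transcription factors were followed in the brain of mouse embryos, as 10 named genes with all of their probes. The genes are Tcf7l2, Lhx9, Gbx2, Barhl2, Irx1, Irx2, Irx3, Tal1, Gata2 and Gata3. They are carried by 18 of the 45281 probes of a single-colour Illumina bead array, and 9 of the 10 genes are among the 10624 genes measured well enough for a test. The series holds 16 arrays of brain RNA from embryonic day 18, 8 titled HeCo and 8 titled wild type (WT below), all of the NOR/CD-1 strain. HeCo stands for heterotopic cortex: the gene Eml1, whose product binds microtubules, is mutated in these mice, and a band of misplaced neurons forms under their cortex. The labels give the tissue as brain without saying which part was taken, do not give the zygosity of the mutation, and do not say that each array is a separate embryo. The genes were chosen by their measured signals on these same arrays, with earlier results known, in which 2 of the HeCo arrays, HeCo 7 and HeCo 16, were low for markers of the caudal brain. The genotype difference and the departures of these 2 arrays are therefore given as a description, and nothing is read from a test of any of the 10 genes.

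In the developing brain, the territory behind the telencephalon is divided by transcription factors into thalamus, pretectum, midbrain and hindbrain. Tcf7l2, the nuclear effector of Wnt signalling, is strongly expressed in postmitotic neurons of the thalamus, habenula and pretectum. Gbx2 and Lhx9 are homeodomain and LIM-homeodomain factors of thalamic neurons, and Barhl2 is a homeodomain factor of the diencephalon. The Iroquois genes Irx1, Irx2 and Irx3 encode homeodomain factors of the caudal diencephalon, midbrain and hindbrain, while the anterior forebrain expresses little of them. Tal1, Gata2 and Gata3 direct the choice of a GABAergic identity in midbrain and caudal diencephalic neurons, and the same genes act in blood cells and, for Tal1 and Gata2, in endothelium.

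The promoter sequences of the 4 genes with the largest departures described below are shown first. They are the 250 bases upstream of an annotated start, from RefSeq on the mouse build GRCm38.p6, written 5′ to 3′ on the strand of the gene.
Irx2, chr13:72628570-72628819, + strand: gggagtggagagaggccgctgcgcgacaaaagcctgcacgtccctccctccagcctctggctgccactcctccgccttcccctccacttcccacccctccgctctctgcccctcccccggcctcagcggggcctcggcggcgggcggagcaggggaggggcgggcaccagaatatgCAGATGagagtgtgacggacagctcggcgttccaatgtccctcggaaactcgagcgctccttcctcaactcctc
Irx3, chr8:91801655-91801904, - strand: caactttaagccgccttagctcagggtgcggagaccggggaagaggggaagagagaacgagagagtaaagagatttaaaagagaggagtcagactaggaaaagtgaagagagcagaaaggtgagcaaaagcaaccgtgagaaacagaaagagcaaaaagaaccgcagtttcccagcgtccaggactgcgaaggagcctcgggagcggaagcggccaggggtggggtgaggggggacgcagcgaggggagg
Tal1, chr4:115056176-115056425, + strand: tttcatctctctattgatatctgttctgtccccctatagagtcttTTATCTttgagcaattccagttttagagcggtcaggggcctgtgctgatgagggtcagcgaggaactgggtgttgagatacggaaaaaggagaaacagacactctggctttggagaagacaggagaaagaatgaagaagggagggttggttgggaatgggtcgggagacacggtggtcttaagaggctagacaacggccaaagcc
Gata3, chr2:9878601-9878850, - strand: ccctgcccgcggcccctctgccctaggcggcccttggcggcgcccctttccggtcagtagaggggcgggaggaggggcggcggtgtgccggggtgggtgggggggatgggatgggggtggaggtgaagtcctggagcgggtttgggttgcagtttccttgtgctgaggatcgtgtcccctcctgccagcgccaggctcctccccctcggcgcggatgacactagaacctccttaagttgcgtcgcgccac
Capitals mark the motif matches. The search, on both strands, was for the GATA motif (AGATAA or AGATAG or TGATAA or TGATAG), for the E-box CAGATG and for the TCF/LEF motif (CTTTGAA or CTTTGAT). The second TCF/LEF form and the last 2 GATA forms share 4 letters and can overlap. Tal1 has a GATA match 205 bases upstream of this start, read as TTATCT on the printed strand. Another annotated start of Tal1, not printed, has a window without a match and with a GC content of 62.8%. Irx2 has an E-box match 74 bases upstream. Over the 12 windows of the 9 genes with a promoter in the table, 3 held a GATA match, 1 an E-box match and 0 a TCF/LEF match. Among 32851 windows of all genes the shares with such a match were 26.5%, 14.4% and 7.48%. The GC content of the 4 printed windows was 68.4% for Irx2, 56% for Irx3, 48.8% for Tal1 and 70% for Gata3, against a median of 52.4% over all windows.

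Values are background-corrected, quantile-normalized signals on the log2 scale, and a probe is called detected on an array where its detection p-value is under 0.05. The mean deposited signal was between 374.9 and 597.9 per array, and 17694 to 19553 probes were detected. HeCo 7 (mean signal 381.3, 19070 probes) and HeCo 16 (455.6, 18905 probes) lay inside both ranges. The brighter Eml1 probe had a log2 signal of 4.497 on HeCo 7 and 4.52 on HeCo 16, against 4.40 to 4.67 on the other 6 HeCo arrays and 8.23 to 8.71 on the WT arrays, so both arrays have the Eml1 signal of their labelled group. A second Eml1 probe ran the other way, at 6.92 on HeCo 7 and 6.71 on HeCo 16, 6.04 to 7.05 on the other 6 HeCo arrays and 4.49 to 4.75 on the WT arrays. At least 2-fold below the WT mean were 99 genes on HeCo 7 (0.932% of those tested) and 72 genes on HeCo 16 (0.678%), where the other 14 arrays had 1 to 13 each. The same 2 arrays are the lowest HeCo arrays for each of the 9 measured transcription factors below, though HeCo 16 is close to WT 4 for Lhx9 and to HeCo 14 for Gbx2. The genotype differences are given with and without them. Precision is limited throughout by how few arrays there are.

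**Figure D1:**
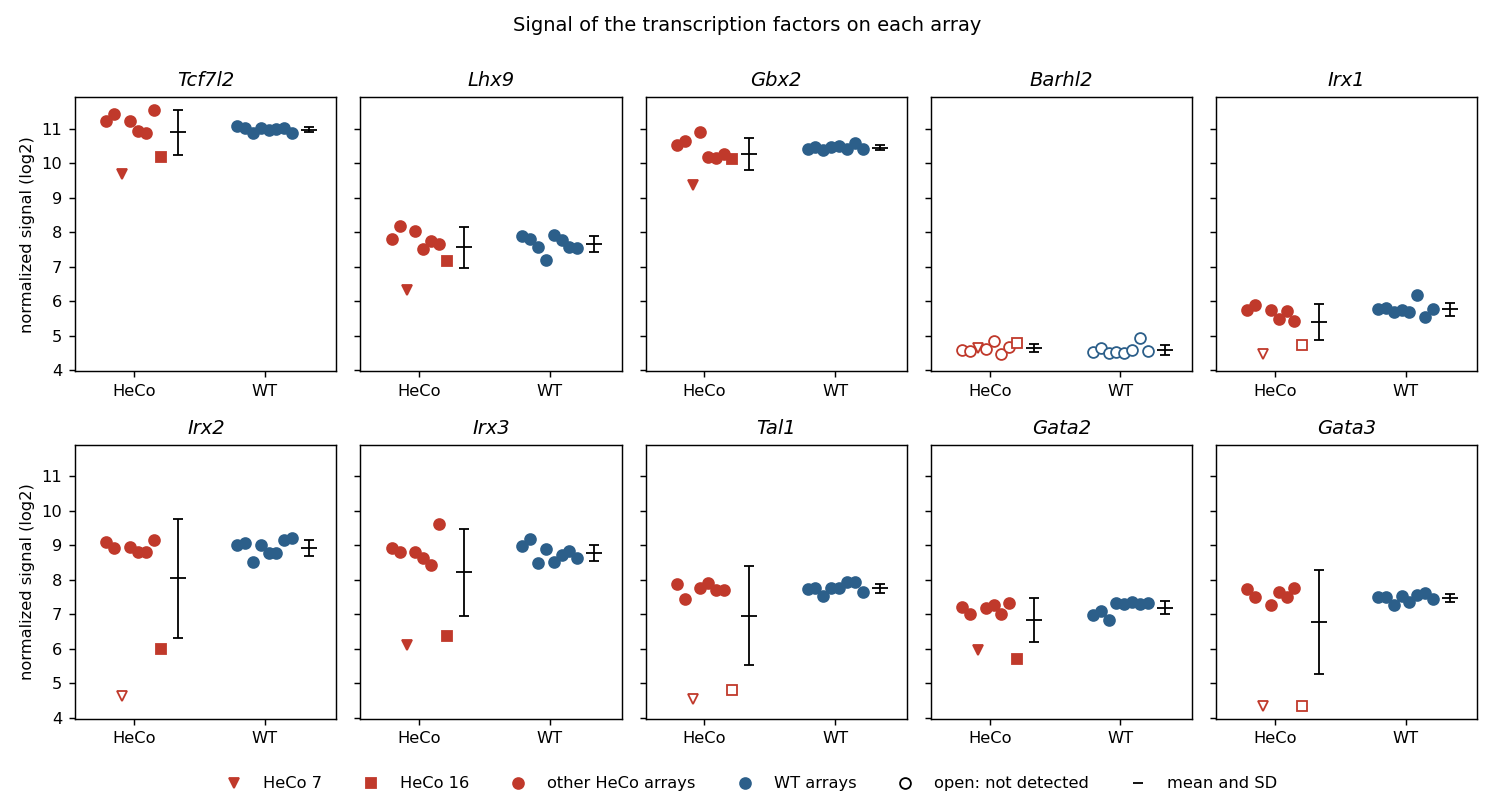
Normalized log2 signal of the probe that stands for each gene (y axis) on the 8 HeCo and 8 WT arrays, with the mean and SD of each group; open symbols were not detected. HeCo 7 and HeCo 16 lie below all WT arrays for the 9 measured genes, and Barhl2 is undetected on all 16 arrays.

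All 9 measured genes were lower on HeCo 7 and HeCo 16 than on any WT array. Being below all 8 WT arrays was common on these arrays, holding for 16.2% of the genes tested on HeCo 7 and 16.6% on HeCo 16. Over all genes tested, being at least 2-fold below the WT mean held for the 0.932% and 0.678% given above. As measured, it held for 9 of the 9 on HeCo 7 and for 6 of the 9 on HeCo 16. With each undetected probe set to the lowest signal of any detected probe on its array, a count added after seeing the data, it held for 8 of the 9 on HeCo 7 (0.828% of the genes tested) and 5 of the 9 on HeCo 16 (0.621%), as Irx1 no longer reached 2-fold. Such a bound depends on the background correction. By the same rule the counts on HeCo 7 and HeCo 16 were 7 and 5 of the 9 with a neqc offset of 50 in place of 16. They were 6 and 4 of the 9 without background correction, where 0.377% and 0.32% of the genes tested were 2-fold lower. On the other 6 HeCo arrays none of the 9 was 2-fold lower. The genes were chosen with the low values of HeCo 7 and HeCo 16 known, so nothing is read from these counts. Averaged over the 9 genes as measured, undetected probes included, the departure from the WT mean was -2.18 on HeCo 7 and -1.73 on HeCo 16, whereas it lay between -0.12 and 0.17 on the other 6 HeCo arrays and between -0.20 and 0.07 on the WT arrays. As these are bulk samples, fewer cells of a type and less RNA per cell cannot be told apart.

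**Figure D2:**
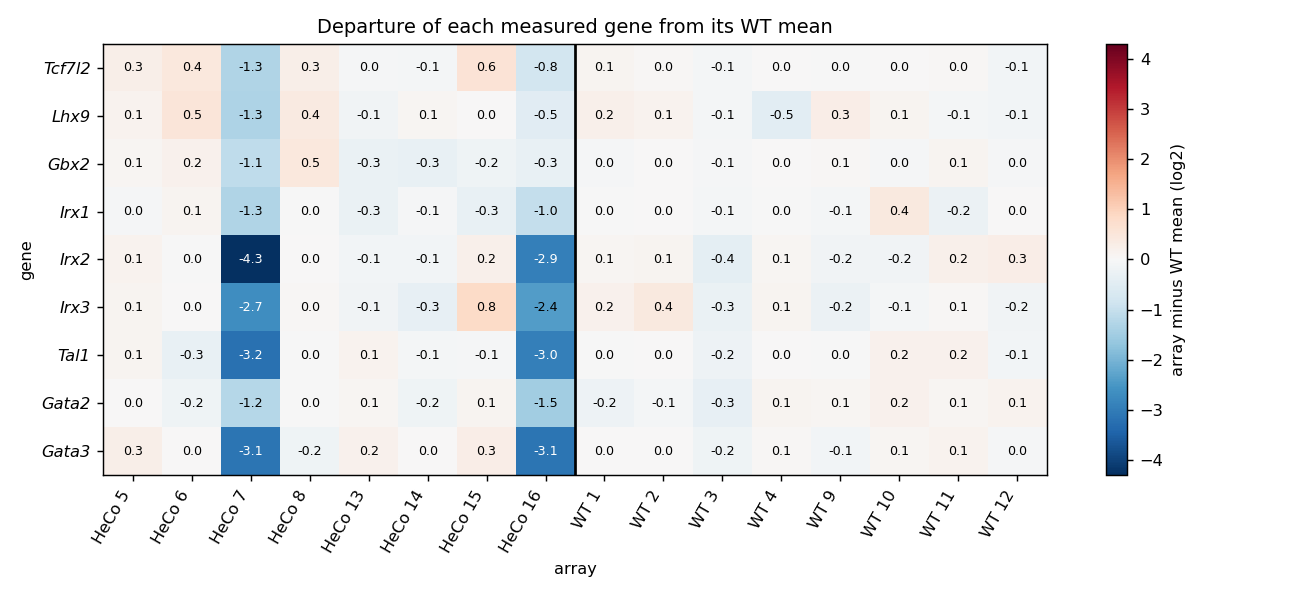
Departure of each of the 9 measured genes from its WT mean (log2, colour and number) on the 16 arrays, HeCo arrays left of the line and WT arrays right of it. The columns of HeCo 7 and HeCo 16 run from -0.3 to -4.3, undetected values included as measured, and all other cells lie between -0.47 and 0.84.

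The thalamic genes stayed detected on both low arrays, and their departures from the WT mean lay between -1.33 and -0.33. Tcf7l2 had a lowest, median and highest log2 signal of 9.68, 11.08 and 11.55 on the HeCo arrays, against 10.86, 10.99 and 11.08 on the WT arrays. Its lowest values were those of HeCo 7 (9.68) and HeCo 16 (10.18), while HeCo 5, 6, 8 and 15 were above every WT array. Its departure from the WT mean corresponded to a 2.45-fold lower signal on HeCo 7 and a 1.73-fold lower one on HeCo 16. Of its other probes, one had departures of -1.45 and -0.98 and another of -0.73 and -0.70 on HeCo 7 and HeCo 16, and the remaining 3 were not detected on any array. On the first of these other probes WT 9 (8.46) was above every HeCo array. The 6 probes do not all carry the same transcript accession, and the exons they match were not analysed here.

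Lhx9 had a lowest, median and highest log2 signal of 6.33, 7.72 and 8.19 on the HeCo arrays, against 7.19, 7.68 and 7.93 on the WT arrays. HeCo 7 stood apart at 6.33, whereas HeCo 16 (7.18) was level with the lowest WT array, WT 4 (7.19). Its second probe, of the same accession, departed by -0.999 on HeCo 7 and -0.60 on HeCo 16. Gbx2 had 9.36, 10.22 and 10.90 on the HeCo arrays, against 10.39, 10.43 and 10.58 on the WT arrays. HeCo 7 (9.36) was the only array clearly apart, since HeCo 16 (10.12) lay beside HeCo 14 (10.14) and HeCo 13 (10.18). Barhl2 was detected on 0 of 8 HeCo and 0 of 8 WT arrays, with a lowest detection p-value of 0.069, so no difference can be given for it.

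Of the Iroquois genes, Irx2 and Irx3 had far larger departures than Irx1, which has a low signal on all arrays. Irx2 had a lowest, median and highest log2 signal of 4.63, 8.87 and 9.15 on the HeCo arrays, against 8.51, 9.00 and 9.20 on the WT arrays. On HeCo 7 its probe was not detected and its signal was at least 15.5-fold lower than the WT mean, a bound of at least 7.99-fold with an offset of 50 and 5.98-fold without background correction. On HeCo 16 it was detected at 5.99, a 7.68-fold lower signal. The bound sets the WT mean against the lowest signal of any detected probe on that array. A second probe of Irx2 was not detected on HeCo 7, at least 6.02-fold lower, and was detected on HeCo 16, 5.85-fold lower, and one more was detected on 0 of 8 HeCo arrays and 1 of 8 WT arrays. The other 6 HeCo arrays, at 8.80 to 9.15, lay within the WT range.

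Irx3 had 6.10, 8.72 and 9.62 on the HeCo arrays, against 8.48, 8.77 and 9.18 on the WT arrays. It remained detected on HeCo 7 (6.39-fold lower) and HeCo 16 (5.26-fold lower), and HeCo 15 was above every WT array. Irx1 had 4.47, 5.60 and 5.89 on the HeCo arrays, against 5.53, 5.77 and 6.18 on the WT arrays. It was detected on 6 of 8 HeCo arrays, those without detection being HeCo 7 and HeCo 16, and on 8 of 8 WT arrays. The low signal leaves room only for a bound of at least 1.74-fold on HeCo 7 and 1.72-fold on HeCo 16.

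Tal1 and Gata3 were detected on 14 of the 16 arrays and on neither of the 2 low ones. Tal1, a basic helix-loop-helix factor, had a lowest, median and highest log2 signal of 4.55, 7.69 and 7.90 on the HeCo arrays, against 7.55, 7.76 and 7.93 on the WT arrays. It was not detected on HeCo 7 or HeCo 16, which puts its signal there at least 6.89-fold and at least 6.81-fold below the WT mean. Gata3, a zinc finger factor, had 4.34, 7.499 and 7.76 on the HeCo arrays, against 7.28, 7.501 and 7.63 on the WT arrays. It too was not detected on HeCo 7 or HeCo 16, at least 5.67-fold and at least 5.60-fold lower. Gata2, which acts beside Gata3 in the same neurons, had 5.70, 7.09 and 7.32 on the HeCo arrays, against 6.84, 7.29 and 7.37 on the WT arrays. Unlike Tal1 and Gata3 it was still detected on both low arrays, 2.35-fold lower on HeCo 7 and 2.82-fold lower on HeCo 16. Tal1 and Gata3 were each other's closest match among the 9 genes, with a mean absolute distance between their departures of 0.11 (log2) over the 16 arrays, which takes in the 2 arrays where neither was detected. Irx2 and Lhx9 were the farthest apart, at 0.58. These sizes depend on the background correction. In quantile-normalized signals without it, the bounds on HeCo 7 and HeCo 16 were at least 3.02-fold and 3.01-fold lower for Tal1, and at least 2.604-fold and 2.592-fold lower for Gata3. Gata2, detected on both, was then 1.68-fold lower on HeCo 7 and 1.84-fold lower on HeCo 16.

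HeCo 7 and HeCo 16 can be compared with each other only for the genes detected on both. HeCo 7 was lower than HeCo 16 by 0.50 for Tcf7l2, 0.85 for Lhx9 and 0.76 for Gbx2 on the log2 scale. The whole range of the 8 WT arrays was 0.22, 0.74 and 0.19 for the same genes. Irx3 differed by -0.28 and Gata2 by 0.26 (HeCo 7 minus HeCo 16), within their WT ranges of 0.70 and 0.52. Irx1, Tal1 and Gata3 were detected on neither array and Irx2 on HeCo 16 alone, so no difference is given for them. The mean departure of the thalamic genes was -1.24 on HeCo 7 and -0.54 on HeCo 16. These are single arrays, so the contrast between them has no replicate check.

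**Figure D3:**
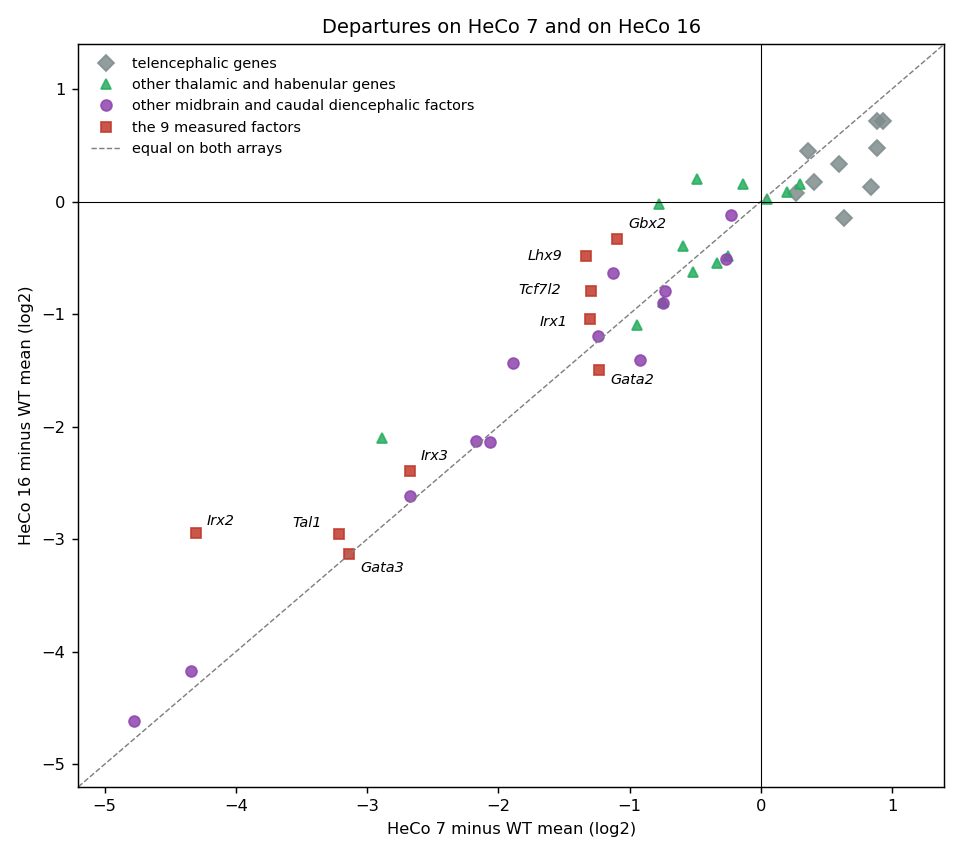
Departure from the WT mean on HeCo 7 (x axis, log2) and on HeCo 16 (y axis, log2) for the 9 measured factors and 3 lists of other genes. Tcf7l2, Lhx9 and Gbx2 lie above the line of equal departure, the places of Irx1, Tal1 and Gata3 are those of undetected probes on both arrays and that of Irx2 on HeCo 7, and all telencephalic genes are at positive values on HeCo 7.

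As genotype groups, HeCo and WT gave negative differences for all 9 genes, with a far larger spread in HeCo than in WT. Irx2 averaged 8.04 ± 1.73 in HeCo and 8.93 ± 0.23 in WT (SD, n = 8 each), a log2 difference of -0.89 (SE 0.49). Tal1 averaged 6.97 ± 1.42 in HeCo and 7.76 ± 0.13 in WT (difference -0.79, SE 0.41). Gata3 averaged 6.77 in HeCo and 7.48 in WT (difference -0.71, SE 0.43). The difference was -0.57 (SE 0.37) for Irx3, -0.37 (SE 0.17) for Irx1 and -0.36 (SE 0.19) for Gata2. The thalamic genes had the smallest differences, -0.18 (SE 0.14) for Gbx2, -0.10 (SE 0.19) for Lhx9 and -0.08 (SE 0.19) for Tcf7l2. In the limma fit over all genes, 0 of the 9 passed an adjusted p of 0.05, where 0.0565% of the genes tested did (0.0188% lower in HeCo), and 1 of the 9 had an unadjusted p under 0.05, where 7.05% did. For 0 of the 9 did the arrays of the groups not overlap, against 0.113% of the genes tested. A negative difference was found for 51.9% of the genes tested. Because the genes were named from these arrays, nothing is read from these counts.

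Without HeCo 7 and HeCo 16 the mean difference over the 9 genes was 0.05, against -0.45 with them, and 4 of the 9 were negative. Tal1 then averaged 7.73 ± 0.17 in HeCo (SD, n = 6) and 7.76 ± 0.13 in WT (n = 8), and Gata2 7.17 ± 0.13 in HeCo and 7.19 ± 0.19 in WT. Irx2, Irx3 and Gata3 had differences of 0.02 (SE 0.10), 0.09 (SE 0.14) and 0.10 (SE 0.09). Irx1 remained lower in mean at -0.11 (SE 0.10), and Lhx9 was higher at 0.17 (SE 0.12). Tcf7l2 had the largest of these differences, 0.23 (SE 0.09). In the fit without the 2 arrays, 0.0753% of the genes tested passed and 0 of the 9 did.

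The other 6 HeCo arrays were less uniform than the WT arrays for Gbx2 and for the brightest probe of Tcf7l2. Tcf7l2 had an SD of 0.26 over these 6 arrays, against 0.07 over the 8 WT arrays, and Gbx2 had an SD of 0.30, against 0.07. The ratio of the SDs was 3.64 for Tcf7l2 and 4.59 for Gbx2, higher than for 99.84% and 99.97% of the genes tested, whereas Lhx9 had a ratio of 1.03 and the other 6 genes 0.60 to 1.68. The WT spread of both genes was small in itself, since 2.39% of the genes tested had a lower WT SD than Tcf7l2 and 1.62% a lower one than Gbx2. Over the 14 arrays without HeCo 7 and HeCo 16, 68.3% of the genes tested had a lower SD than Tcf7l2 and 60.7% a lower one than Gbx2. Because the genes were chosen by their signals on these same arrays, nothing is read from these shares. For Tcf7l2 the ratio rests on its brightest probe. Its other detected probes had SDs of 0.196 and 0.296 over these 6 HeCo arrays, against 0.230 and 0.294 over the WT arrays. Among the 9 genes, the largest SD over these 6 HeCo arrays was that of Irx3, 0.40, against 0.24 over the WT arrays. The 3 highest HeCo arrays for Gbx2 were HeCo 5, 6 and 8, whereas the highest for Tcf7l2 was HeCo 15. Gbx2 was 0.26 above WT within title numbers 1 to 8 without HeCo 7, and had a difference of -0.28 within title numbers 9 to 16 without HeCo 16. Lhx9 had 0.40 and -0.06, and Tcf7l2 0.30 and 0.17. What the title numbers stand for is not given, and their part in the spread was not tested.

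Other genes of the midbrain and caudal diencephalon were also low on HeCo 7 and HeCo 16, whereas telencephalic genes were high there. Of 22 other transcription factors and cofactors of the midbrain and caudal diencephalon, 13 were measured. In HeCo 7 and HeCo 16 their median departure was -1.24 and -1.41, against 0.08 over the other 6 HeCo arrays, where all genes tested had medians of 0.002, 0.009 and -0.001. On each of the 2 arrays 8 of the 13 were at least 2-fold below the WT mean, beside 0.932% and 0.678% of the genes tested. The lists overlap. Barhl1 is also among the relatives below, and Sox14 and Zfpm2 are also among the GABAergic genes. Lef1 is in the thalamic, relative and Wnt target lists, and Lhx6 is among both the relatives and the telencephalic genes. The midbrain-hindbrain factors En1 and En2, named after their values were seen, were at least 18.9-fold and at least 18.7-fold below the WT mean on HeCo 7, where neither was detected. On HeCo 16 En1 was again undetected, at least 18.7-fold lower, and En2 was detected, 18.0-fold lower. Between the genotypes 0 of the 13 passed over all genes and 2 had an unadjusted p under 0.05, the smallest belonging to Nkx6-2, a homeodomain factor (difference -0.74, SE 0.27, limma adjusted p = 0.621). Nkx6-2 was undetected on HeCo 7 and HeCo 16, at least 3.28-fold and at least 3.25-fold below the WT mean. The median difference over the 13 was -0.35, against -0.005 over all genes tested.

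Other genes of the thalamus, habenula and pretectum had smaller median departures. The 13 measured of 15 had a median departure of -0.49 on HeCo 7 and -0.40 on HeCo 16, and 0.07 over the other 6 HeCo arrays. On HeCo 7 and HeCo 16, 1 and 2 of the 13 were at least 2-fold below the WT mean (0.932% and 0.678% of the genes tested). Below all WT arrays were 8 and 7 of the 13 (16.2% and 16.6%), and above all WT arrays 2 and 3 (14.8% and 13.8%). Pou4f1, a POU factor of habenular neurons, had the largest departures of the list. It was undetected and at least 4.88-fold lower on HeCo 7, and detected and 4.29-fold lower on HeCo 16. None of the 13 passed between the genotypes (0 at an unadjusted p under 0.05), the smallest p belonging to Lef1 (0.21, SE 0.11, limma adjusted p = 0.731), a nuclear partner of Wnt signalling. Lef1 was detected on 6 of 8 HeCo and 3 of 8 WT arrays. Wnt target genes, of which 9 of 14 were measured, had median departures of -0.13 on HeCo 7 and 0.05 on HeCo 16. Sp5, named after its values were seen, departed by -1.19 on HeCo 7 and -0.84 on HeCo 16. None of the 9 passed between the genotypes and 1 had an unadjusted p under 0.05, the receptor gene Tnfrsf19 (0.29, SE 0.08, limma adjusted p = 0.39).

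Of 20 listed relatives of the factors 11 were measured. As measured, 4 were at least 2-fold below the WT mean on each of HeCo 7 and HeCo 16. Of all genes tested 0.932% and 0.678% were. Irx5 and Irx6, which share a chromosome with Irx3, were undetected on both arrays. Irx5 was at least 2.67-fold lower on HeCo 7 and 2.64-fold lower on HeCo 16, and Irx6 at least 1.64-fold and 1.62-fold lower, while Irx4 was not detected on any array. Barhl1, the relative of Barhl2, was detected on all 16 arrays and departed by -1.89 on HeCo 7 and -1.44 on HeCo 16. Of the LIM-homeodomain genes, Lhx1 and Lhx5 departed by -2.17 and -0.90 on HeCo 7 and by -2.16 and -1.05 on HeCo 16. Lhx6 and Lhx8 departed by 0.27 and 0.41 on HeCo 7 and by 0.07 and 0.27 on HeCo 16, and Lhx3 was detected on neither. Tcf7l1, a relative of Tcf7l2, departed by 0.12 on HeCo 7 and 0.11 on HeCo 16, and Lef1 was undetected on HeCo 16 and departed by 0.04 on HeCo 7. Lhx2, a LIM-homeodomain factor that is also expressed in the cortex, was higher than the WT mean by 0.49 on HeCo 7 and 0.75 on HeCo 16. It had the smallest p of the family list between the genotypes (0.33, SE 0.09, limma adjusted p = 0.365), and 0 of the 11 measured relatives passed, with 1 at an unadjusted p under 0.05. Irx6, Lhx1, Lhx3, Lhx5, Lhx6, Lhx8, Tcf7l1 and the undetected relatives were named after their values were seen. Gata1, Gata4 and Gata5 were not detected on any array.

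The genes with profiles most like the mean of the 9 were Shox2, Barhl1, Pou4f1, Irx5 and Pdlim3. Likeness was the mean absolute distance between departures from the WT mean over the 16 arrays, which was 0.15, 0.16, 0.16, 0.18 and 0.20 (log2) for these genes. Shox2, a homeodomain factor, departed by -1.68 on HeCo 7 and -1.78 on HeCo 16. By the same measure the gene nearest to both Tal1 and Gata3 was Pmch, which encodes the hypothalamic peptide MCH precursor (departures of -3.02 on HeCo 7 and -2.91 on HeCo 16). The nearest to Irx3 was Sox14, to Irx2 Ebf3 and to Gata2 Cbln4. Of the remaining genes the nearest were Kcnj12 for Tcf7l2, Rgs3 for Lhx9, Tmem145 for Gbx2 and Scx for Irx1. In that order they departed by -0.98, -0.26, -0.66 and -1.12 on HeCo 7, where Scx was undetected. On HeCo 16 they departed by -0.74, -0.32, -0.57 and -0.96. The distance is a mean over 16 arrays, so a near gene need not be as low on these arrays.

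**Figure D4:**
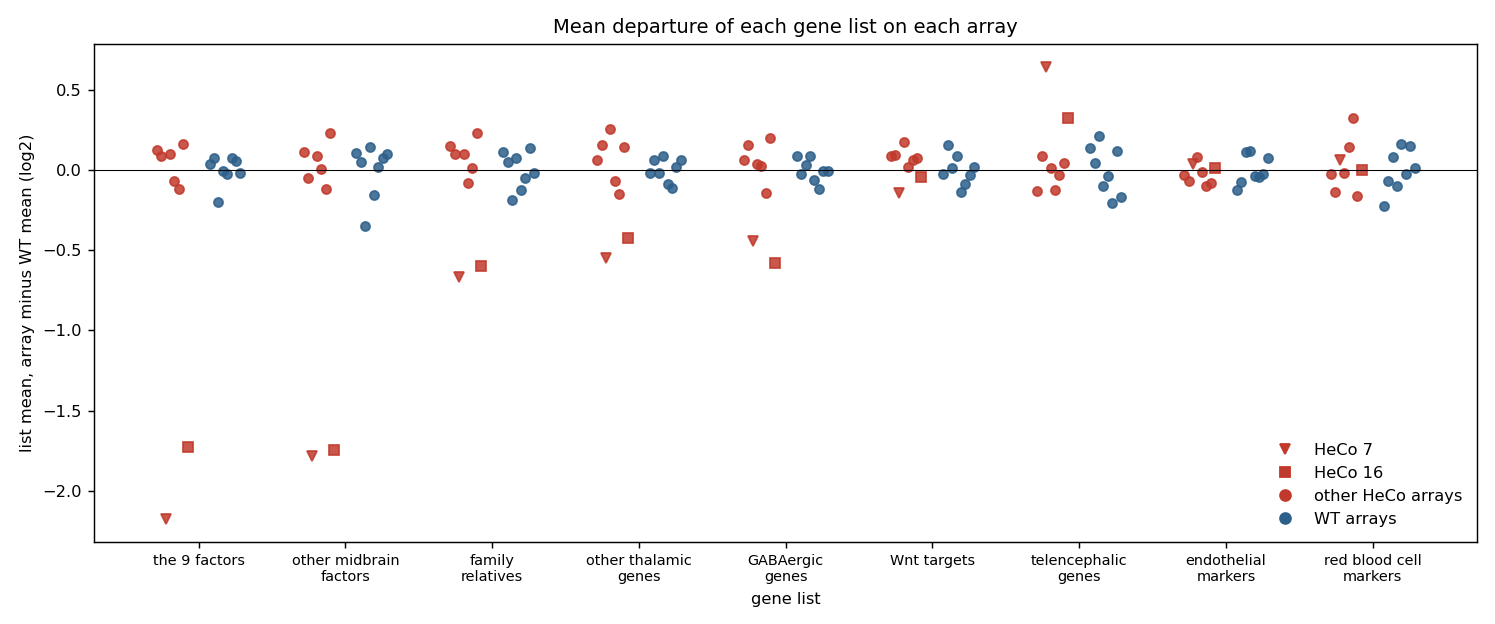
Mean departure from the WT mean (y axis, log2) of 9 gene lists on each array, HeCo arrays left of WT arrays in each list. HeCo 7 and HeCo 16 are low for the 9 factors and for other midbrain factors, high for telencephalic genes, and within the range of the other arrays for endothelial and red blood cell markers.

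Telencephalic genes were higher on the same 2 arrays. Of 16 listed, 9 were measured, and their mean departure was 0.65 on HeCo 7 and 0.32 on HeCo 16, against -0.13 to 0.09 on the other 6 HeCo arrays and -0.21 to 0.21 on the WT arrays. On HeCo 7, 8 of the 9 were above all WT arrays (14.8% of the genes tested), and on HeCo 16 5 of the 9 were (13.8%). The layer 6 factor Tbr1 departed by 0.93 on HeCo 7 and 0.71 on HeCo 16. It had the smallest p of the list between the genotypes (0.36, SE 0.11, limma adjusted p = 0.435), and 0 of the 9 passed, with 1 at an unadjusted p under 0.05. The summed linear signal of the 9 telencephalic genes was 18164 on HeCo 7 and 13014 on HeCo 16, against 9769 to 13395 on the other 6 HeCo arrays and 9733 to 12898 on the WT arrays. The part of this difference in the low values of the 9 transcription factors was not tested.

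Since Tal1, Gata2 and Gata3 also act in blood and vessels, markers of those cells were set beside them. Red blood cell markers (8 of 20 measured) had a mean departure of 0.06 on HeCo 7 and 0.003 on HeCo 16, against -0.16 to 0.32 on the other 6 HeCo arrays and -0.23 to 0.16 on the WT arrays. Endothelial markers (14 of 16 measured) had 0.04 on HeCo 7 and 0.01 on HeCo 16, against -0.10 to 0.08 on the other 6 HeCo arrays and -0.13 to 0.12 on the WT arrays. Their summed linear signal was 7326 on HeCo 7 and 7626 on HeCo 16, against 5855 to 7663 on the other 6 HeCo arrays and 6521 to 8271 on the WT arrays. The sum for red blood cell markers is nearly all adult globin at the top of the scale, where quantile normalization fixes the value, so it is given without Hba-a1, Hbb-bt and Hbb-bs. For the remaining 5 it was 926.6 on HeCo 7 and 889.0 on HeCo 16, against 580.2 to 1139 on the other 6 HeCo arrays and 630.0 to 964.7 on the WT arrays. Markers of megakaryocytes, mast cells and T cells (4 of 10 measured) had -0.15 on HeCo 7 and -0.08 on HeCo 16, within -0.51 to 0.30 on the WT arrays. Between the genotypes 0 genes of these lists passed, and the smallest p of each list belonged to Hemgn, Sox18 and Itga2b (limma adjusted p = 0.766, 0.54 and 0.692). At an unadjusted p under 0.05 there were 0, 1 and 1 genes. Erythroid Gata1 and the mast cell proteases Mcpt4 and Cma1 were detected on no array. Of 8 pituitary markers, 0 were measured.

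General GABAergic genes departed less than Tal1 and Gata3 on the 2 arrays. The enzymes of GABA synthesis Gad1 and Gad2 departed by -0.26 and -0.24 on HeCo 7 and by -0.28 and -0.22 on HeCo 16. The vesicular transporter Slc32a1 departed by -0.25 on HeCo 7 and -0.61 on HeCo 16. In that list, 7 of 11 were measured and 0 passed between the genotypes, with 1 at an unadjusted p under 0.05 (Slc32a1, -0.17, SE 0.08, limma adjusted p = 0.703). Sox14, a factor of midbrain and thalamic GABAergic neurons, was undetected on both, at least 5.77-fold lower on HeCo 7 and at least 5.70-fold lower on HeCo 16. Hindbrain genes were variable on all arrays: the 4 measured of 14 had a mean departure of -1.07 on HeCo 7 and -0.94 on HeCo 16, against -0.91 to 0.61 on the other 6 HeCo arrays and -0.91 to 1.37 on the WT arrays. Of these hindbrain genes Hoxa2, Hoxb2 and Hoxb5 were undetected on both low arrays and Egr2 on HeCo 7, so the means there include values at background. The smallest p among the 4 belonged to Hoxb2 (-0.62, SE 0.23, limma adjusted p = 0.621). None of the 4 passed between the genotypes, and 2 had an unadjusted p under 0.05. Gad1 and Gad2 were named after their values were seen.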

How the data were processed

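Biotin-labelled RNA had been hybridised to Illumina bead arrays, per the labels, and the submitters' processing notes list GenomeStudio. The authors deposited a linear intensity and a detection p-value for 45281 probes on each of 16 arrays, with no normalization visible. The deposited series matrix holds linear intensities that match quantile-normalized signals within 0.004741 on the log2 scale and served as an alternative. In R 4.3.3 with limma 3.58.1, neqc (offset 16) corrected the deposited intensities for background, quantile-normalized them and gave log2 values. A probe entered the fit if detected (p under 0.05) on 8 arrays or more, which 18532 did (lmFit, eBayes with trend, no covariate). The brightest probe stood for each of 10624 genes, with Benjamini-Hochberg adjustment over them. Symbols were updated through RefSeq (GRCm38.p6) for 34807 probes. The analysis was tested on simulated data. No set test was run.

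The 10 genes, all lists and HeCo 7 and HeCo 16 as a pair were chosen with earlier results of these data known. The genes named are the 10, of each list those past the threshold (at most 3) or else the gene with the smallest p, the 5 genes nearest to the mean profile and the gene nearest to each of the 9. The labels do not say that samples came from separate embryos, so p-values measure only the spread between these samples.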

Additional observations from a re-analysis of the deposited data

Results flagged for a closer look

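Within each group of 8 arrays, the highest and lowest value was compared with the nearest other value by Dixon's ratio, over 17 profiles (13 detected probes and 4 means) and thus 34 groups. Chance flags about 1 in 20 groups, and 4 were found. No HeCo array was among them, but the ratio cannot show whether HeCo 7 and HeCo 16 stand apart. Where both are low, the lower is set against the other, which keeps the ratio small. For Irx3 the ratio of the lowest HeCo array, HeCo 7, was 0.080. Its departure from the WT mean was -2.68 on HeCo 7 and -2.40 on HeCo 16. For the lowest HeCo array the ratio was highest for Gbx2, at 0.49 on HeCo 7, under the critical value for 8 arrays. A second Tcf7l2 probe was highest on WT 9 at 8.46, with the next WT array at 8.05. A second Lhx9 probe was highest on WT 1 at 7.00, with the next at 6.74. Irx1 was highest on WT 10 at 6.18, with the next at 5.80. The mean departure of the 9 transcription factors was lowest among WT arrays on WT 3, at -0.20, with the next at -0.02.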

How the results depend on the processing

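The mean difference over the 9 genes stayed negative in 30 of the 32 alternatives run, the exceptions being 0.05 without both HeCo 7 and HeCo 16 and the 0.13 given below. It ran from -0.54 to -0.20 when each array was left out in turn, the smallest without HeCo 7 (-0.20) and HeCo 16 (-0.27). It was -0.28 without background correction or from the series matrix, and -0.32 with array weights. Without the 2 arrays, within title numbers 1 to 8 and 9 to 16 (chosen after seeing the data), it was 0.13 and -0.03. Of the 9 genes, 0 passed the threshold in any alternative run, and likewise 0 of each gene list. All genes past the threshold numbered 6, and 10 with the mean of all kept probes. With each array left out there were 2 to 7, with 2 without HeCo 5, without HeCo 8 or without WT 2 and 3 without WT 9. There was 1 within title numbers 1 to 8, 2 within 9 to 16, and 1 within each of these runs without HeCo 7 or HeCo 16. There were 2 and 1 within description numbers 1 to 8 and 9 to 16. Fewer arrays enter these fits. No paired analysis was possible because HeCo and WT share no replicate number. Signals near background limit Irx1, Irx2, Tal1 and Gata3 to bounds on at least 1 low array, which are smaller without background correction. The same limit to bounds holds for En1, En2, Irx5, Irx6, Lhx3, Nkx6-2, Pou4f1, Scx and Sox14. The hindbrain means include undetected probes, on HeCo 7 and HeCo 16 and also on other arrays.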
